A study of Sus scrofa with 15 samples.

Results

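PLAU (ENSSSCG00000010312) encodes urokinase-type plasminogen activator (uPA), a secreted serine protease, and its transcript was followed through all 15 libraries of an RNA-seq study of human PKD2 genotypes in pig kidney cells. It is 1 of the 16660 genes of the count table and 1 of the 11553 genes that were tested. PLAU was chosen with its values in these libraries already known, so its levels and fold changes are given as a description, with no test. The study used LLC-PK1, an established line from the proximal tubule of the pig kidney, to ask which genes respond when PKD2, a gene of autosomal dominant polycystic kidney disease, is overexpressed. Each well received 3 µg of plasmid by transient transfection, and RNA was taken 48 h later. NC was the plasmid labelled FLAG-floxP-neo-pH11 without a PKD2 insert (by the study's methods the FLAG tag came with the insert, so NC lacked it), WT carried wild-type PKD2, Tg1 carried c.A1532T/p.D511V, Tg2 carried c.T1967G/p.L656W and Tg3 carried c.C2224T/p.R742X, with 3 replicate libraries per plasmid. The Tg3 change is a stop codon, so its product lacks the end of the protein and the FLAG tag. All groups, NC included, were transfected and shared the plasmid backbone, in which a CAG promoter drives the insert. A library holds the RNA of a whole well, in which transfected and untransfected cells were read together, and fewer cells that express a gene cannot be told apart from less of its RNA per cell.

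Urokinase cuts plasminogen to plasmin, a broad protease that digests fibrin and pericellular matrix and activates latent growth factors and metalloproteinases. The enzyme is held at the cell surface by its receptor PLAUR and is blocked by serpins, SERPINB2 and SERPINE2 among them. In the kidney it is made by tubule epithelium and leaves the body in the urine. LLC-PK1 cells have long served to study how the urokinase gene is switched on, both by hormones that raise cAMP and by signals that reach AP-1 and ETS sites in its enhancer.

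Library totals lay between 20216200 and 26132196 counts. All 18 kidney tubule epithelial markers found in the table were tested genes, with a summed level between 4930 and 5737 CPM over the libraries. In this paragraph CPM is a gene's share of all counts in its library, without further scaling. Below, tested genes are given in TMM-normalized CPM, which is that share scaled by edgeR's TMM factors, unless library totals are named. All 6 endothelial markers and 6 of 8 leukocyte markers lay under a mean of 2 CPM. Of 6 fibroblast markers 5 lay under 2 CPM, the exception being COL1A2. The summed level of the list was 808 to 873 CPM in Tg2 and 854 to 905 CPM in Tg3, against 931 to 993 CPM in NC. WT and Tg1 overlapped NC. In edgeR's quasi-likelihood test, 6 of the 18 tubule markers fell in Tg2 (ANPEP, CUBN, VIL1, SLC5A2, CDH6 and LRP2), and 1 rose (CDH1), where 8.43% of all tested genes were called. In Tg1, 1 of the 18 fell, where 1.19% of all tested genes were called. In Tg3 edgeR called 0, but 13 of the 18 estimates were below NC, as in Tg2. In Tg3, 9 of the 18 had an unadjusted p under 0.05, as did 2089 of all 11553 tested genes. The part of these shifts in the results below was not tested. Nothing in the sources used here shows that replicates were more than separate wells, so p-values measure the spread between wells.

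With TMM scaling, PLAU was higher in every library of the 4 PKD2 genotypes than in every NC library, and with scaling by library totals this held for all but WT replicate 2. In NC it was at 51.4, 58.8 and 52.9 CPM in replicates 1, 2 and 3. In Tg3, whose product is truncated, the values were 64.4, 61.1 and 61.2 CPM, and in Tg1 they were 60.2, 68.7 and 68.8 CPM. Tg2 had 74.1, 76.1 and 69.8 CPM, and WT had 79.5, 59.5 and 80.6 CPM. The margin over NC was wide in Tg2 and narrow in WT, where replicate 2 stood only just above NC replicate 2. By library totals these libraries changed places, at 58.7 CPM in WT replicate 2 and 59.1 CPM in NC replicate 2. These values rest on 1166 to 1840 counts per library. The 95% counting intervals (exact Poisson, counting error only) of those nearest libraries overlapped, with 56.3 to 62.8 CPM in WT replicate 2 and 55.9 to 61.8 CPM in NC replicate 2. The NC replicate 2 interval also overlapped that of Tg1 replicate 1, at 57.1 to 63.5 CPM, and those of all Tg3 libraries. In Tg3 these were 61.1 to 67.9, 57.7 to 64.7 and 58.1 to 64.4 CPM in replicates 1, 2 and 3. With TMM scaling, every library above NC in all 4 genotypes is a pattern found in 78 of the 11553 tested genes, or 0.675%, PLAU included. By library totals it is found in 41 genes (0.355%), and PLAU is not among them. For single genotypes it was more common, in 3.73% of genes for WT, 11.9% for Tg1, 17.5% for Tg2 and 13.4% for Tg3. These comparisons share the NC libraries.

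**Figure D1:**
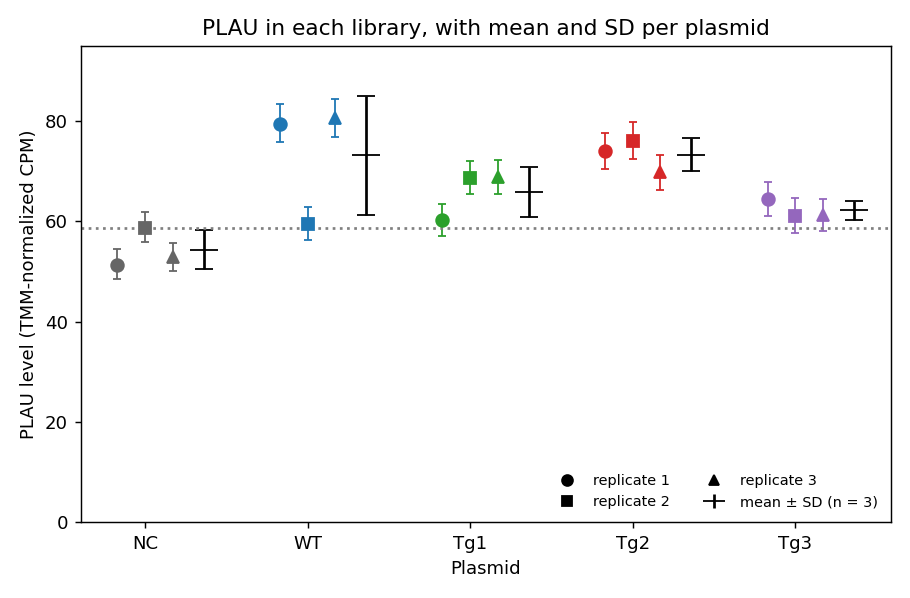
PLAU level in TMM-normalized CPM (y axis) in each of the 15 libraries by plasmid (x axis), with colored points for replicates 1 to 3, bars on the points for the 95% counting interval, and black bars for the mean and SD of 3 libraries. The dotted line marks the highest NC library at 58.8 CPM, which every library of the 4 genotypes exceeds, WT replicate 2 at 59.5 CPM by the least, while by library totals WT replicate 2 falls below NC replicate 2.

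The mean level was 54.3 ± 3.91 CPM in NC (SD, n = 3), 62.3 ± 1.88 CPM in Tg3, 65.9 ± 4.92 CPM in Tg1, 73.2 ± 11.9 CPM in WT and 73.3 ± 3.24 CPM in Tg2, each over 3 libraries. The ratio to the NC mean was 1.15 in Tg3, 1.21 in Tg1 and 1.35 in both WT and Tg2. Along this order the libraries of Tg3 and Tg1 overlapped, as did those of Tg1 and WT and those of WT and Tg2. The overlaps of WT came from its replicate 2, and differences between these plasmids were not tested. The library values of NC and Tg3 did not overlap, although the counting interval of NC replicate 2 overlapped those of Tg3. Tg2 lay above all libraries of Tg3 and Tg1, but over Tg1 only just, at 69.8 CPM in Tg2 replicate 3 against 68.8 CPM in Tg1 replicate 3. Their counting intervals overlapped, at 66.3 to 73.3 CPM and 65.5 to 72.2 CPM. That of Tg2 replicate 3 also overlapped that of Tg3 replicate 1, at 61.1 to 67.9 CPM. WT was the least uniform plasmid for this transcript, with a coefficient of variation of 16.2% between wells, against 7.2% in NC, 7.46% in Tg1, 4.42% in Tg2 and 3.03% in Tg3. Counting noise alone would give 2.49% to 2.73%. Over all plasmids the within-plasmid SD of PLAU was 0.13 on the log2 scale, above the median of 0.089 over tested genes.

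On the log2 scale of the fit across all genes, PLAU differed from NC by 0.43 with WT, 0.28 with Tg1, 0.43 with Tg2 and 0.20 with Tg3, each with a standard error of 0.096. These differences held different places among genes. Only 33 of the 11553 tested genes had a higher log2 fold change in WT, whereas 446 did in Tg1, 545 in Tg2 and 1108 in Tg3. A PLAU difference of the same size thus stood nearer the top of the table in WT than in Tg2. Against WT, the PLAU log2 difference was -0.15 for Tg1, 0.00 for Tg2 and -0.23 for Tg3, with standard errors of 0.095 to 0.096. Between the mutants it was 0.24 from Tg3 to Tg2, 0.08 from Tg3 to Tg1 and -0.15 from Tg2 to Tg1.

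The place of WT in this order depended on its replicate 2. Leaving that library out raised the WT log2 fold change from 0.43 to 0.56, and leaving out WT replicate 3 lowered it to 0.35. With replicate 2 of every plasmid left out, the means were 80.0 CPM in WT, 71.9 CPM in Tg2, 64.5 CPM in Tg1, 62.8 CPM in Tg3 and 52.1 CPM in NC. WT then stood highest, at 1.54 times the NC mean, and the log2 difference of Tg2 from WT became -0.16. Scaling by library totals in place of TMM factors also put Tg2 below WT, with a log2 difference of -0.07. In the mutants the leave-one-out range of the log2 fold change against NC was 0.24 to 0.34 for Tg1, 0.39 to 0.49 for Tg2 and 0.16 to 0.26 for Tg3, above 0 in every fit.

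**Figure D2:**
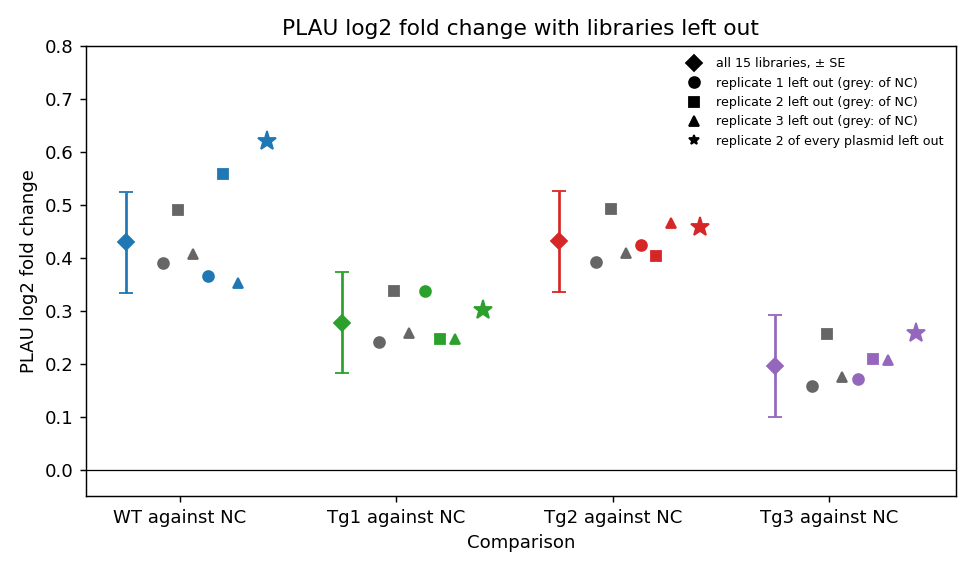
PLAU log2 fold change against NC (y axis) for each genotype (x axis), with diamonds and bars for the estimate and standard error from 15 libraries, circles, squares and triangles for fits without replicate 1, 2 or 3 of the genotype (colored) or of NC (grey), and stars for fits without replicate 2 of every plasmid. All values lie above 0, and the WT values spread from 0.35 to 0.62.

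The genes that act with urokinase were read from a list of 23 members of the plasminogen activation system, of which 19 were found in the table by symbol and 15 were tested. A gene was called in edgeR's quasi-likelihood test where the Benjamini-Hochberg adjusted p was at most 0.05 and the log2 fold change at least 0.26 in size. In Tg2, 3 of the 15 rose (PLAUR, PLAT and ENO1) and 0 fell, against the 8.43% called of all tested genes, 4.73% upward and 3.7% downward. In Tg1, 0 of the 15 were called by edgeR against a background of 1.19% (0.182% upward and 1.01% downward). There, 5 of the 15 had an unadjusted p under 0.05, as did 2304 of all tested genes. In WT and Tg3 edgeR called 0 genes in the list and 0 of all tested genes (0%), while 0 and 5 list members, and 524 and 2089 genes in all, had an unadjusted p under 0.05, and DESeq2 called 11 and 52 genes in all. The median log2 fold change of the list was 0.04 for WT, 0.13 for Tg1, -0.05 for Tg2 and 0.01 for Tg3, beside medians within 0.01 of 0 over all tested genes. In Tg2, 6 members had higher and 9 had lower estimates than in NC, so the 3 calls were not shared by the list as a whole.

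The receptor PLAUR, which concentrates uPA at the cell surface, was sparse at 46 to 125 counts per library. Its levels in replicates 1, 2 and 3 were 2.73, 2.86 and 2.27 CPM in NC, 5.60, 5.19 and 3.65 CPM in Tg2 and 3.12, 4.27 and 2.01 CPM in WT. In Tg1 they were 2.13, 3.55 and 3.70 CPM, and in Tg3 they were 3.76, 3.89 and 3.64 CPM. Tg2 and Tg3 lay above all NC libraries, and Tg1 and WT overlapped them. PLAUR rose in Tg2 by 0.88 ± 0.25 on the log2 scale (standard error, adjusted p = 0.0369, edgeR). In Tg3 the log2 fold change was 0.52 (adjusted p = 0.295, edgeR), in Tg1 it was 0.26 (adjusted p = 0.602, edgeR), and in WT it was 0.25. Within WT, replicate 2 had the highest PLAUR and the lowest PLAU of the plasmid. Both places were common, as this library was the highest of WT in 38.3% of all tested genes and the lowest in 41.6%.

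PLAT, the gene of tissue-type plasminogen activator, encodes the other activator of plasminogen. It was at 321, 353 and 304 CPM in NC and at 458, 427 and 397 CPM in Tg2, with no overlap. WT, at 328, 376 and 309 CPM, overlapped NC, and so did Tg1, at 341, 366 and 383 CPM, while Tg3, at 382, 423 and 366 CPM, stood above NC. The rise in Tg2 was 0.39 ± 0.08 on the log2 scale (standard error, adjusted p = 0.0178, edgeR). PLAT was also the only member of the list called in Tg2 against WT, at 0.34 ± 0.08 (standard error, adjusted p = 0.0325, edgeR), a comparison in which 5.92% of all tested genes were called, 3.31% upward. Against WT, edgeR called 0 of the 15 in Tg1 and in Tg3, with 2 and 3 at an unadjusted p under 0.05. Of all tested genes, 0.0692% and 0% were called there, DESeq2 called 77 and 116, and 1806 and 2215 had an unadjusted p under 0.05. The PLAT call in Tg2 against WT was lost without Tg2 replicate 1, Tg2 replicate 2, WT replicate 1 or WT replicate 3. Its adjusted p from edgeR lay between 0.00208 and 0.165 over 6 leave-one-out fits. In WT against NC, the log2 fold change was 0.43 for PLAU and 0.05 for PLAT, a difference between genes that was not tested. The ratio of PLAU to PLAT in CPM, examined after the values were seen, was 0.160, 0.167 and 0.174 in NC and 0.162, 0.178 and 0.176 in Tg2, which overlap. In WT it was 0.243, 0.158 and 0.261, so that replicates 1 and 3 stood above all NC libraries and replicate 2 below them.

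Among the inhibitors, SERPINE2 (protease nexin) was at 7.49 to 9.82 CPM in Tg2 and at 9.17 to 10.7 CPM in NC and was not called. SERPINB2, at a mean of 1.42 CPM by library totals, was under the filter. So were VTN, the adhesive glycoprotein vitronectin, at 0.72 CPM and A2M, a broad protease trap, at 0.28 CPM, both by library totals. KLKB1, plasma prekallikrein, with 0 counts in 9 libraries, was under it too. SERPINF2, the plasmin inhibitor, and CPB2, which trims plasmin's binding sites from fibrin, were tested and not called.

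Of the surface docking sites of plasminogen, 1 was called. ENO1, a glycolytic enzyme that also binds plasminogen at the surface, rose in Tg2 from 1301 ± 46.1 to 1583 ± 56.7 CPM (SD, n = 3 each), which is 0.28 ± 0.05 on the log2 scale (standard error, adjusted p = 0.0134, edgeR). ANXA2 and S100A10, which form a plasminogen-binding complex, and PLGRKT, a membrane receptor of plasminogen, were not called in any genotype. Of the membrane proteases that can activate pro-urokinase, ST14 (matriptase) had an adjusted p of 0.0253 in edgeR in Tg2, but its log2 fold change of 0.17 was under the threshold, and HPN (hepsin) was not called. F12, the contact factor, SPINT1 and SPINT2, which inhibit matriptase and hepsin, and LRPAP1, the chaperone of the LRP clearance receptors, were not called either. PLG, SERPINA5, LRP1 and TMPRSS4 were not matched by symbol and are not analysed here.

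The 3 calls in Tg2 depended on single libraries. Each was lost without NC replicate 1, NC replicate 3, Tg2 replicate 1 or Tg2 replicate 2, and held without NC replicate 2 or Tg2 replicate 3. Over these 6 fits the adjusted p from edgeR ran from 0.0105 to 0.0865 for PLAT, from 0.0181 to 0.141 for PLAUR and from 0.00948 to 0.0768 for ENO1. The whole table moved with them, as the number of genes called in Tg2 was 24 without NC replicate 1, 0 without NC replicate 3, 48 without Tg2 replicate 1 and 0 without Tg2 replicate 2. In the fits with 0 edgeR calls, 2751 and 3015 genes had an unadjusted p under 0.05, so every call in Tg2 named here was lost in both. The calls in Tg1 named here (IER3, MYC, JUNB, ZFP36, ZC3H12A, RC3H1 and ITGA2) were each lost without NC replicate 1 and without Tg1 replicate 2. In each fit the spread of a gene is estimated from all groups together, so a group with 2 libraries left adds less to it.

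**Figure D3:**
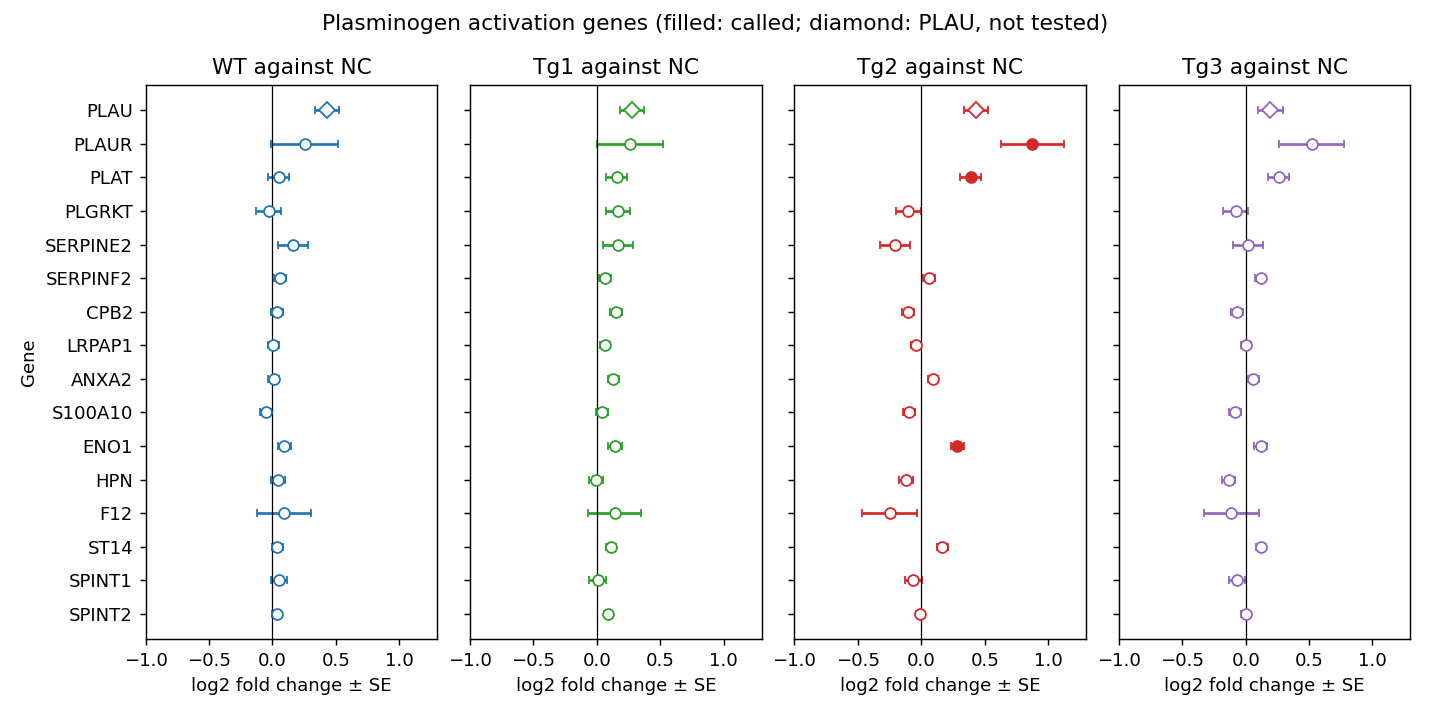
Log2 fold change against NC with its standard error (x axis) of PLAU and the 15 tested genes of the plasminogen activation system (y axis), in a panel for each genotype, with filled circles for called genes, open circles for the others and a diamond for PLAU, which was not tested. Filled circles appear only in Tg2, for PLAUR, PLAT and ENO1.

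The libraries ordered PLAU differently from these partners. Likeness was measured as Pearson's r of log2(CPM + 1) with PLAU over the 15 libraries, which share plasmids, normalization and depth, and it is given as a description. Within the list r ran from -0.37 for S100A10 to 0.44 for ENO1, with 0.30 for PLAUR and 0.29 for PLAT. Without the 3 WT libraries, a choice made after the data were seen, r over the 12 others was 0.94 for ENO1, 0.84 for PLAT and 0.82 for PLAUR. Over all 15 tested members r without WT ran from -0.54 for F12 to 0.94 for ENO1, so not all members were alike to PLAU there. F12 was sparse, with 952 counts over all libraries, and the next lowest r was -0.51 for HPN. Leaving out WT replicate 2 alone gave 0.36 for PLAUR, 0.31 for PLAT and 0.50 for ENO1. Within WT, replicate 2 had the highest level of these 3 genes and the lowest of PLAU. WT replicate 2 was the lowest WT library in 41.6% of all tested genes and the highest in 38.3%.

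Over the 10133 other tested genes with a symbol the median r was -0.01, and 23 genes had r above 0.8. The 8 genes most like PLAU were RND3 (r = 0.97), DUSP5 (0.96), HBEGF (0.96), BHLHE40 (0.95), AMOTL2 (0.94), MAFF (0.93), IER3 (0.92) and THBS1 (0.89). DUSP5 is a nuclear phosphatase that acts on ERK, and HBEGF is a ligand of the EGF receptor. BHLHE40 and MAFF are transcription factors, AMOTL2 is a junctional protein that binds YAP, IER3 is an immediate early gene, and THBS1 is thrombospondin-1, a matrix glycoprotein. Without the WT libraries r stayed between 0.84 for THBS1 and 0.97 for RND3. All 8 were lowest of WT in replicate 2, as PLAU was. In deviations from the plasmid means, which leave out the differences between plasmids, r with PLAU was 0.84 to 0.94 for these genes, which were chosen on the same libraries, and the sign of their mean deviation matched that of PLAU in 12 of 15 libraries. For the 15 tested plasminogen activation genes the same r ran from -0.36 to 0.36. Without the WT libraries it ran from 0.61 for THBS1 to 0.95 for RND3 among the 8. Among the 15 it ran from -0.88 for F12 to 0.80 for ANXA2, with 0.77 for PLAUR, so the ranges then overlapped. F12 and PLAUR were sparse, and the next lowest value after F12 was -0.70 for SPINT2.

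RND3, the gene most like PLAU, was at 140, 155 and 147 CPM in NC and at 183, 160 and 187 CPM in WT. It had 154, 177 and 174 CPM in Tg1, 177, 182 and 166 CPM in Tg2, and 161, 157 and 161 CPM in Tg3. As in PLAU, WT replicates 1 and 3 were the highest libraries and NC replicate 1 the lowest. DUSP5 had 235, 269 and 263 CPM in NC, 395, 301 and 411 CPM in WT and 367, 380 and 349 CPM in Tg2. Its libraries did not overlap with NC in these genotypes, while Tg1, at 265, 355 and 371 CPM, did overlap. In Tg2, where 8.43% of all tested genes were called and 4.73% upward, 6 of the 8 genes rose by edgeR's test, with log2 fold changes of 0.67 for MAFF (adjusted p = 0.0344), 0.64 for IER3 (0.00865), 0.52 for DUSP5 (0.0219), 0.38 for BHLHE40 (0.0214), 0.35 for HBEGF (0.027) and 0.29 for AMOTL2 (0.0321). RND3 and THBS1 had adjusted p-values of 0.0297 and 0.0492 in edgeR with log2 fold changes of 0.25 and 0.23, under the threshold. IER3 was the only gene of the 8 called in Tg1, at 0.44 (adjusted p = 0.027, edgeR). Since these genes were chosen by their likeness to PLAU, which was itself high in Tg2, their count is a description. The genes least like PLAU were ATL3, a shaper of the endoplasmic reticulum (r = -0.81), PGGT1B, a prenyltransferase subunit (-0.77), CPSF6, a cleavage and polyadenylation factor (-0.77), and VAPA, a membrane contact protein (-0.77).

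**Figure D4:**
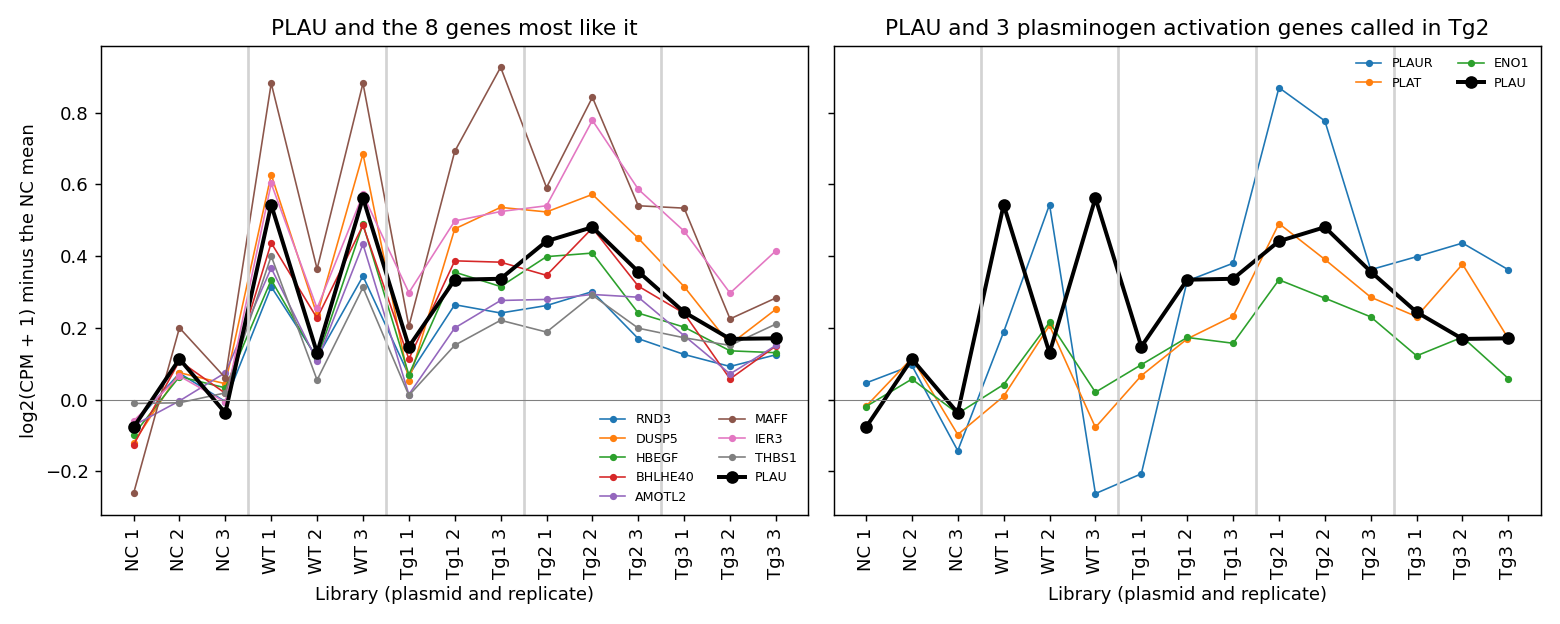
Difference of log2(CPM + 1) from the NC mean (y axis) in each library (x axis, plasmid and replicate), for PLAU (black) with the 8 genes most like it (left panel) and with the 3 plasminogen activation genes called in Tg2 (right panel). In the left panel all lines dip at WT replicate 2, and in the right panel PLAUR, PLAT and ENO1 peak there within WT.

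The ERK pathway is a known route to the urokinase enhancer, and DUSP5 and IER3 were also part of a list of 16 genes of ERK feedback and response, of which 13 were tested. In Tg2, 7 of the 13 rose (MYC, IER3, DUSP1, DUSP5, DUSP6, SPRY1 and SPRY2) and 0 fell, against the 8.43% called in all. Their log2 fold changes ran from 0.36 for SPRY2, an inhibitor of receptor tyrosine kinase signalling (adjusted p = 0.0283, edgeR), to 0.65 for DUSP6, the cytoplasmic ERK phosphatase (adjusted p = 0.0117, edgeR). DUSP6 was at 67.4, 79.9 and 65.8 CPM in NC and at 117, 118 and 100 CPM in Tg2, with no overlap. In Tg1, MYC and IER3 rose, against 1.19% called in all, and in WT and Tg3 edgeR called 0 of the 13. An unadjusted p under 0.05 was found for 7 and 6 of them, beside 524 and 2089 of all tested genes. IER3 was at 179 to 195 CPM in NC, 223 to 284 CPM in WT and 230 to 259 CPM in Tg3. MYC was at 219 to 236 CPM in NC, 262 to 301 CPM in WT and 274 to 293 CPM in Tg3. Both genes thus lay wholly above NC in WT and Tg3, as in 3.73% and 13.4% of tested genes. The study reported these genes as upregulated in every genotype, by sequencing and by qRT-PCR. The median log2 fold change of the list was 0.40 in Tg2 and 0.22 in each of the other genotypes. All 13 estimates were above 0 in Tg2 and Tg3, and 11 of 13 were in WT and Tg1. This list had been drawn up with results on MYC and IER3 known, and it supports nothing on its own.

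**Figure D5:**
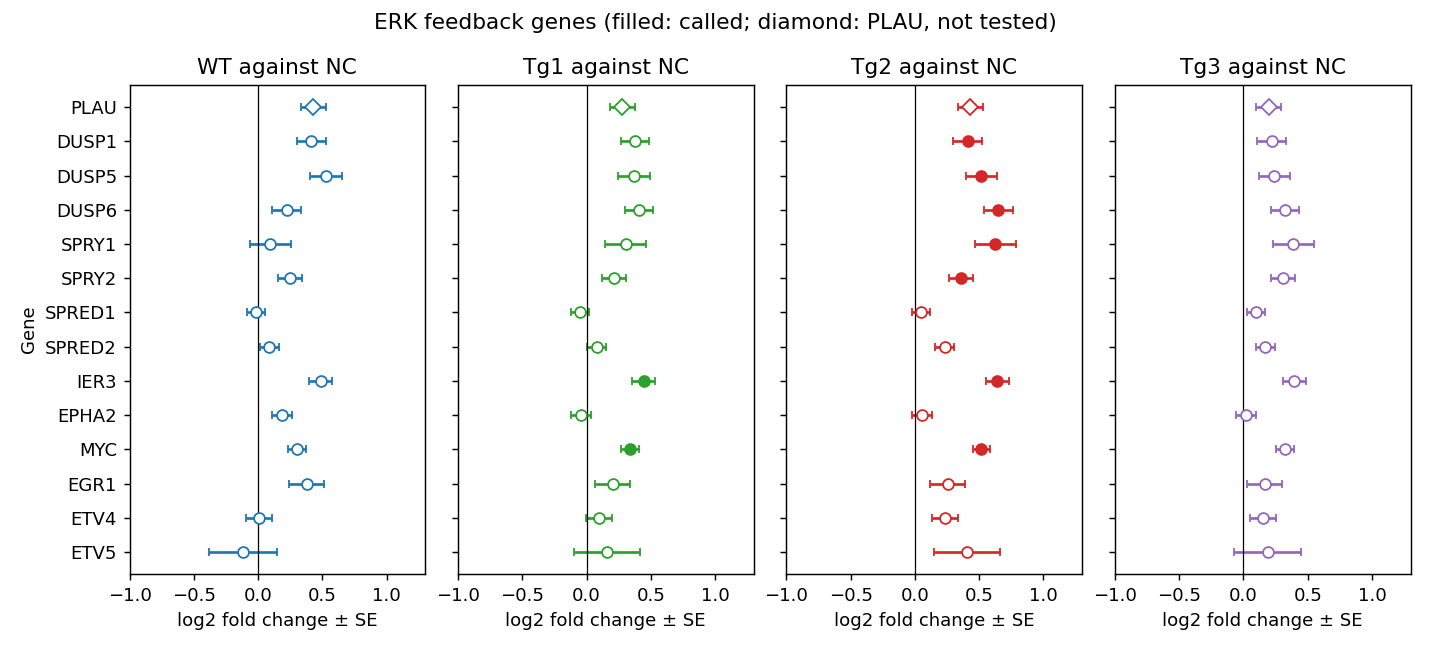
Log2 fold change against NC with its standard error (x axis) of PLAU and the 13 tested ERK feedback genes (y axis), in a panel for each genotype, with filled circles for called genes, open circles for the others and a diamond for PLAU, which was not tested. In Tg2 all circles lie above 0 and 7 are filled, and in Tg1 those of IER3 and MYC are filled.

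Of the transcription factors that bind AP-1, ETS, cAMP response and related elements, 26 were tested. FOSL1 and JUNB, both AP-1 subunits, MAFF and the NF-kappa B subunit RELA rose in Tg2, which is 4 of 26 where 4.73% of all tested genes rose. FOSL1 was at 60.6, 71.1 and 59.8 CPM in NC and at 102, 109 and 102 CPM in Tg2, a log2 fold change of 0.71 (adjusted p = 0.0107, edgeR). JUNB, at 122, 113 and 131 CPM in NC and 166, 180 and 178 CPM in Tg2, had a log2 fold change of 0.52 (adjusted p = 0.00877, edgeR). Both genes were separated from NC in every Tg2 library. JUNB was also the only member called in Tg1, where 1.19% of all tested genes were called, at 0.41 (adjusted p = 0.0222, edgeR). In WT edgeR called 0 of the 26, although 10 had an unadjusted p under 0.05, as did 524 of all tested genes. In Tg3 it called 0, with 4 at an unadjusted p under 0.05, beside 2089 of all tested genes. The list median was 0.17 for Tg2, 0.11 for Tg1 and Tg3 and 0.09 for WT. ATF2, a factor of the cAMP response element family, had the lowest estimate of the list in Tg2, at -0.19, which was under the fold threshold.

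Urokinase mRNA is known as a short-lived message with AU-rich elements, to which decay and stabilizing proteins bind, and 11 such proteins were tested. In Tg2, 3 rose and 0 fell, against 8.43% called of all tested genes, and in Tg1, 2 rose and 1 fell, against 1.19%. ZFP36 (tristetraprolin), a decay factor, rose in both Tg1 and Tg2, with log2 fold changes of 0.46 and 0.54 (adjusted p = 0.0222 and 0.0107, edgeR). ZC3H12A (regnase-1), an endonuclease of short-lived messages, rose in Tg1 and Tg2 as well, at 0.33 and 0.43 (adjusted p = 0.0294 and 0.0107, edgeR). ZFP36L1, a relative of ZFP36, rose in Tg2 at 0.56 (adjusted p = 0.0238, edgeR), and RC3H1 (roquin-1) fell in Tg1, at -0.31 (adjusted p = 0.0213, edgeR). In every Tg1 and Tg2 library both ZFP36 and ZC3H12A stood above all NC libraries, as PLAU did. Such a separation was found in 11.9% of tested genes for Tg1 and 17.5% for Tg2. In Tg2 the lowest estimate of the list belonged to TIA1, a translational repressor, at -0.21, which was under the fold threshold. In WT and Tg3 edgeR called 0 of the 11. An unadjusted p under 0.05 was found for 4 and 5 of them, beside 524 and 2089 of all tested genes.

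The receptor PLAUR has no cytoplasmic tail and signals through integrins and other surface partners, of which 17 were tested. In Tg2, 1 rose and 3 fell, against 8.43% called of all tested genes, and in Tg1, 0 rose and 1 fell, against 1.19%. In Tg2, ITGA3, an integrin subunit that binds PLAUR, rose with a log2 fold change of 0.56 (adjusted p = 0.0241, edgeR). ITGAV, an integrin subunit that binds vitronectin, fell in Tg2 at -0.27 (adjusted p = 0.00994, edgeR), as did the tetraspanin CD82 at -0.29 (adjusted p = 0.0295, edgeR). LRP2 (megalin), an endocytic receptor of the proximal tubule, fell in Tg2 at -0.35 (adjusted p = 0.0233, edgeR), from 301, 295 and 303 CPM in NC to 220, 214 and 272 CPM. LRP2 was at 253, 228 and 250 CPM in Tg1, at 247, 229 and 255 CPM in Tg3 and at 278, 256 and 306 CPM in WT. In Tg1, Tg2 and Tg3, all libraries were thus below NC for LRP2, while WT overlapped NC. The share of all genes that lay wholly below NC was not counted. ITGA2, a collagen-binding integrin subunit, fell in Tg1, at -0.37 (adjusted p = 0.0235, edgeR), from 52.9, 45.4 and 52.5 CPM in NC to 37.2, 38.3 and 41.0 CPM. In WT and Tg3 edgeR called 0 of the 17. An unadjusted p under 0.05 was found for 1 and 7 of them, beside 524 and 2089 of all tested genes.

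Downstream of urokinase, 15 genes of pericellular proteolysis were tested. Of the list, MMP3, MMP10 and TIMP2 were not matched by symbol and are not analysed here. The matrix metalloproteinases MMP1, MMP2, MMP7, MMP9, MMP13 and MMP14 were under the filter. So were the growth factors HGF, TGFB1 and TGFB2 and the protease HGFAC. TIMP1, a metalloproteinase inhibitor, was at 138, 167 and 129 CPM in NC and at 265, 242 and 192 CPM in Tg2, with no overlap. It rose there by a log2 fold change of 0.69 (adjusted p = 0.021, edgeR), and 2 of the 15 rose in Tg2, against 4.73% of all tested genes. Like PLAUR and PLAT, it was highest of WT in replicate 2, at 198 CPM against 138 and 127 CPM, as were 38.3% of all tested genes. ADAMTS1, a secreted metalloproteinase, rose in Tg2 at 0.26 (adjusted p = 0.0142, edgeR), and MMP15, a membrane-bound metalloproteinase, had the lowest estimate of the list there, at -0.39 (adjusted p = 0.0581, edgeR). In WT, Tg1 and Tg3 edgeR called 0 of the 15. An unadjusted p under 0.05 was found for 3, 4 and 6 of them, beside 524, 2304 and 2089 of all tested genes.

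The genes around PLAU on its chromosome showed little likeness to it over the 15 libraries. By the RefSeq order of the Sscrofa11.1 assembly, the nearest tested genes with a symbol are CAMK2G, NDST2 and ZSWIM8 on the side before it and VCL, AP3M1 and ADK on the side after it. None of the 6 was called against NC in any genotype by edgeR, and their r with PLAU ran from -0.31 for CAMK2G to 0.17 for ADK. In deviations from the plasmid means r ran from -0.13 for VCL to 0.57 for ADK. Every Tg2 library of VCL lay above NC, as in 17.5% of tested genes, at a log2 fold change of 0.20 (adjusted p = 0.0649, edgeR). The RefSeq models of CAMK2G and of 1 predicted locus overlap that of PLAU, and whether the counting kept reads of overlapping genes apart is not given in the sources used here. CAMK2G, a calcium-dependent kinase gene, had log2 fold changes of -0.01 in WT and -0.09 in Tg2, where PLAU had 0.43 in both.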

How the data were processed

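The authors quantified reads with Salmon against pig transcripts and deposited whole-number counts per gene for all 15 libraries, without normalization. How transcript estimates became gene counts is not given in the sources used here. PLAU and the gene lists were chosen with earlier results of these data known. The 11553 genes whose deposited counts averaged at least 2 CPM were fitted in edgeR 4.0.16 (R 4.3.3, TMM, quasi-likelihood F-test, all libraries in 1 model of group means, Benjamini-Hochberg adjustment over all genes). Standard errors were derived from the estimate and its F statistic. Symbols matched 13373 identifiers. Named genes were the plasminogen activation members, called members and extremes of the other lists, the 8 genes most and 4 least like PLAU, and 3 neighbours on either side. Alternatives were DESeq2 1.42.0, its size factors, library totals, no filter, only the groups compared, no fold threshold, a replicate block and left-out libraries. The fits were tested on simulated data. Human and pig PKD2 and PKD1 were not analysed here, and 1 further gene is not reported here.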

Additional observations from a re-analysis of the deposited data

How the results depend on the processing

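PLAU's log2 fold changes against NC kept their sign under every alternative run, and 88 of 91 alternative values against NC and WT moved by less than the replicate SD. That SD, 0.13 on the log2 scale, is itself widened by WT replicate 2, at -0.28 from its plasmid mean. A fit without 1 library could thus hardly move by more, and the count says little about robustness. The exceptions came without replicate 2 of every plasmid, at 0.62 for WT against NC, -0.32 for Tg1 against WT and -0.16 for Tg2 against WT. Leaving out 1 library, these values ranged from 0.35 to 0.56, from -0.280 to -0.0747 and from -0.127 to 0.0761. Of the 8 genes most like PLAU, 5 remained by deviations from the plasmid means, 4 by r over the 5 plasmid means, and 7 or 8 by the other measures of likeness run.

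The count of genes called in all was 0 in WT and in Tg3, 138 in Tg1 and 974 in Tg2. DESeq2 called 11 in WT, 244 in Tg1 and 52 in Tg3. Without replicate 2 of every plasmid edgeR called 6 in WT and 19 in Tg1. Without a fold threshold it called 264 in Tg1 and 1643 in Tg2. Leaving out 1 library gave 0 to 25 calls in WT, the 25 without WT replicate 2, 16 to 83 in Tg1 and 0 to 1878 in Tg2, the last without Tg2 replicate 3, and 0 to 3 plasminogen activation genes in Tg2. The cause was not tested.

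Replicate numbers are shared between plasmids, and 21 of 30 pairs of same-numbered libraries had deviations correlated above 0.1. Their correlations ran from -0.43 to 0.62 with a mean of 0.16, and 9 of 15 libraries correlated best with their own number. The mean of -0.08 for other pairs is no separate contrast, since deviations cancel out within a plasmid. Many libraries of the same number thus deviated alike, but not all. The sources used here do not say what a number stands for, so the main fit did not take the numbers as pairs, and a shared replicate effect was not tested. With the replicate number as a block, edgeR called 246 genes in Tg1, 1624 in Tg2 and 11 in Tg3, and PLAU's log2 fold change against NC was 0.43 for WT and Tg2, 0.28 for Tg1 and 0.19 for Tg3. The block changed no call of a plasminogen activation gene against NC.

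For PLAU, counting error was below the spread between wells of every plasmid. PLAUR rested on 46 to 125 counts per library.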
